A study of Homo sapiens with 6 samples.

Results

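The genes of the cytosolic ribosomal proteins were examined for accessible chromatin at their ends in Nthy-ORI cells, an immortalised line derived from normal human thyroid follicular epithelium. Members were the RefSeq protein-coding genes with a symbol of RPL or RPS and a number, together with RPLP0, RPLP1, RPLP2 and RPSA. The RPS6K kinases and read-through symbols were not members. On chromosomes 1 to 22 and X, 85 of 19974 protein-coding genes met this rule, and the 2 Y-linked symbols that also met it were not analysed here. Members comprised 43 genes of the large subunit, 3 of its stalk, 31 of the small subunit and 8 paralogues. Open chromatin was mapped by ATAC-seq, where the Tn5 transposase cuts and tags exposed DNA. All cells were first kept for 24 h in hormone-depleted medium. Cells then received vehicle (NaOH, labelled 6 h), 10 nM T3 (triiodothyronine, the active thyroid hormone) for 6 h or 10 nM T3 for 24 h, with 2 samples per group. The labels do not say whether these came from separate cultures. With no 24 h vehicle among the samples used here, the hormone and the longer culture cannot be told apart in the 24 h list.

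Ribosomal proteins form the large and the small ribosomal subunit together with ribosomal RNA, and every growing cell makes them in large and matched amounts. Their genes are dispersed over the genome, are transcribed strongly in most cells and typically start at a cytosine within a short tract of pyrimidines. The transcripts therefore begin with a terminal oligopyrimidine (TOP) tract, through which mTOR signalling controls their translation.

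Each group was represented by 1 deposited list of peaks found in both replicates, with 7103 peaks for vehicle, 12385 for T3 6 h and 60661 for T3 24 h. A peak was counted for a gene when its summit lay within 1 kb of either gene boundary. The lists hold no read counts, so depth is unknown and a gene without a peak is not shown to be closed. Replicate agreement differed between the lists. The median distance between the replicate summits of a peak was 180 bp in vehicle, 222 bp at 6 h and 46 bp at 24 h. The part of this difference in the counts below was not tested. Of 8 thyroid lineage markers, 0 had a gene-end peak in vehicle (1.34% of all protein-coding genes), 1 at 6 h (10.8%) and 5 at 24 h (60.8%). PAX8 had one at both T3 times, and NKX2-1, FOXE1, HHEX and TSHR at 24 h only. Those without one in any list included TG and SLC5A5. The T3 counts lie near the all-gene shares and are not read as a trait of the lineage.

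Nearly all ribosomal protein genes had a gene-end peak in the 24 h list. The number of members with a peak was 0 of 85 in vehicle, 15 at T3 6 h and 82 at T3 24 h. At 24 h this was 96.5% of members (exact Clopper-Pearson 95% interval 90.03 to 99.3), against 60.8% of all protein-coding genes. At 6 h it was 17.6% (10.2 to 27.4), against 10.8% of all protein-coding genes, which lies inside the interval. In vehicle, 1.34% of all protein-coding genes had a gene-end peak. The intervals cover counting error only, and there was 1 list per group, so no difference between lists has a replicate check.

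Set against vehicle, T3 6 h had a peak at 15 members with none in vehicle (10.3% of all genes), and the converse held for 0 members (0.846%). The same comparison of T3 24 h with vehicle gave 82 (59.7%) and 0 members (0.225%). Between the times, 67 members had a peak at T3 24 h and none at T3 6 h (50.5% of all genes), and 0 had one at 6 h alone (0.551%). The nearest vehicle peak to any member was at RPL28, a large-subunit gene, at chr19:55383936-55386049 (hg38). That peak covers the lower boundary of the gene, but its mean replicate summit lay 1402 bp away, outside the 1 kb limit. It ranked low, at percentile 19.6 of the vehicle list by signal.

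**Figure D1:**
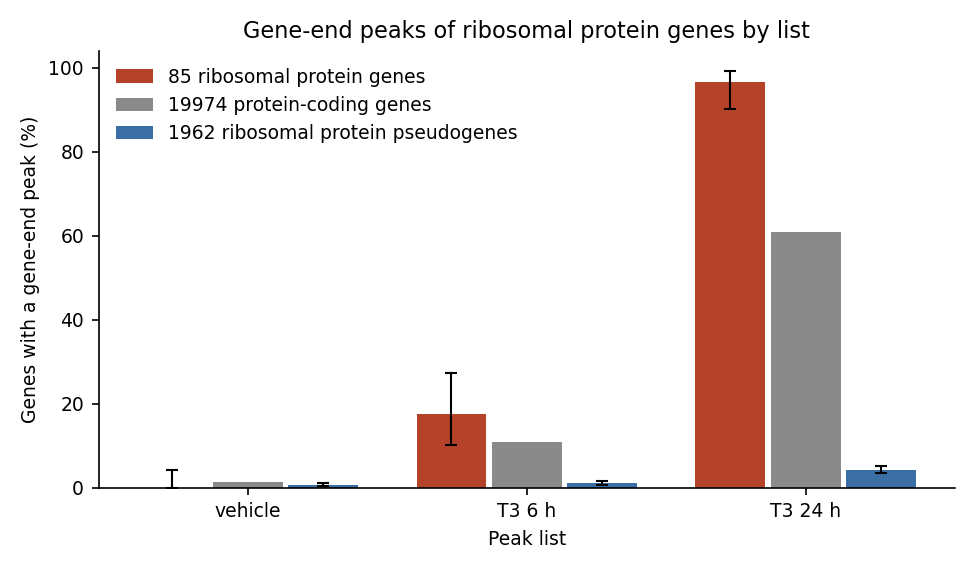
Share of genes with a peak summit within 1 kb of a gene boundary (vertical axis, %) in each peak list (horizontal axis), for 85 ribosomal protein genes, 19974 protein-coding genes and 1962 ribosomal protein pseudogenes. Error bars are exact 95% intervals for members and pseudogenes. Members stood at 0%, 17.6% and 96.5%, all protein-coding genes at 1.34%, 10.8% and 60.8%.

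These counts depended on list length. With every list cut to its 7103 strongest peaks, 0 members had a vehicle peak, 5 had a 6 h peak and 30 had a 24 h peak. The 24 h share was then 35.3% (25.2 to 46.4), against 16.6% of all protein-coding genes, and the 6 h share 5.88% (1.94 to 13.2), against 6.26%. Where only peaks with replicate summits within 100 bp counted, the members with a peak were 0 in vehicle (0.32% of all genes), 5 at 6 h (3.14%) and 67 at 24 h (43.5%). With an IDR (irreproducible discovery rate, the authors' measure of replicate disagreement) of at most 0.01 they were 0 (0.461%), 5 (3.59%) and 80 (55.1%). The 1 vehicle peak at RPL28 was counted with a window of 2 kb (1.89% of all genes), with any overlap of the peak and the 1 kb window (1.78%) and with the merged summit of the list (1.28%).

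Copies of these genes gave another comparison. The genome holds many processed pseudogenes of ribosomal proteins, which carry exon sequence without the promoter of the parent gene. The RefSeq table held 1962 ribosomal protein pseudogenes by symbol and biotype, and whether each is processed was not checked. Of these, 14 had a peak at an end in vehicle (0.714%, against 1.34% of all protein-coding genes). At 6 h 22 had one (1.12%, against 10.8%), and at 24 h 84. The 24 h share was 4.28% (3.43 to 5.27), against 96.5% of the members. Of the 85 distinct 24 h peaks at pseudogene ends, 73 lay at no protein-coding gene end. How reads divided between genes and their copies was not examined.

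Promoter sequence was available for 68 of the 85 members, which together have 84 listed starts. The following stretches run 5′ to 3′ along the transcript, from 160 bases before the listed start to 20 bases from it on, and come from RefSeq (GRCh38.p14). RPS3A, RPL9 and RPS6 had the strongest 24 h peaks among members with a listed start, and RPS14 and RPLP1 the strongest 6 h peaks. RPL22 had close replicate summits at both times. RPL7A had the weakest 24 h peak, and RPL19 and RPL10L had none. Capitals mark the pyrimidine run at the start and matches to the motifs named below.
RPS3A (chr4:151099468-151099647, plus strand): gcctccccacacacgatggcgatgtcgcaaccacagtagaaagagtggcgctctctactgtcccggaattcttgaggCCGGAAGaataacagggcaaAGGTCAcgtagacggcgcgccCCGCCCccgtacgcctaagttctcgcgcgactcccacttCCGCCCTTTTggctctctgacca
RPL9 (chr4:39458903-39459082, minus strand): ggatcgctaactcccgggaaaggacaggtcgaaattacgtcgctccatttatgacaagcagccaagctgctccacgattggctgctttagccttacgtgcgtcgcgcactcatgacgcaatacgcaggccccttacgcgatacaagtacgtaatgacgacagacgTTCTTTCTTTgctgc
RPS6 (chr9:19380217-19380396, minus strand): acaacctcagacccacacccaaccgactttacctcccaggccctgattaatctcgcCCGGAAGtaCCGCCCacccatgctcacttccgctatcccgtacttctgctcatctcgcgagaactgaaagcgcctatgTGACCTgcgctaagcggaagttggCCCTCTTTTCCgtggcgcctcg
RPS14 (chr5:150449720-150449899, minus strand): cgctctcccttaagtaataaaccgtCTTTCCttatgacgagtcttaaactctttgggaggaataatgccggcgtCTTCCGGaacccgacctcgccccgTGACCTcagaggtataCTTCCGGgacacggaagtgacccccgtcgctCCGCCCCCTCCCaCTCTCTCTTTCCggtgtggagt
RPLP1 (chr15:69452658-69452837, plus strand): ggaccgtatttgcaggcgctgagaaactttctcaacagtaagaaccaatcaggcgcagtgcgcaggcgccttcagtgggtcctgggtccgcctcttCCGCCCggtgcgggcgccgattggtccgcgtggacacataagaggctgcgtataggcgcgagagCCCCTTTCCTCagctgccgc
RPL22 (chr1:6199576-6199755, minus strand): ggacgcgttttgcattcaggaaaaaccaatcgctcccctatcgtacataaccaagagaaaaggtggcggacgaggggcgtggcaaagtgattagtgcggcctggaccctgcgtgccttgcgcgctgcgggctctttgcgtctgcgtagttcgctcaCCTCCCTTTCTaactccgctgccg
RPL7A (chr9:133348058-133348237, plus strand): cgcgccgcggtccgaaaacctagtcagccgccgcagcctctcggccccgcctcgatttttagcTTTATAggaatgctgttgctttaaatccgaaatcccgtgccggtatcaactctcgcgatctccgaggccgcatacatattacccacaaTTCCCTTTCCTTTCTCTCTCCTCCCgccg
RPL19 (chr17:39200163-39200342, plus strand): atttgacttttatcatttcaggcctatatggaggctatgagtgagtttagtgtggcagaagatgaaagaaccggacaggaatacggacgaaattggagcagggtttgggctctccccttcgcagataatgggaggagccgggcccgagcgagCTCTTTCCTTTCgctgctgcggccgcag
RPL10L (chr14:46651762-46651941, minus strand): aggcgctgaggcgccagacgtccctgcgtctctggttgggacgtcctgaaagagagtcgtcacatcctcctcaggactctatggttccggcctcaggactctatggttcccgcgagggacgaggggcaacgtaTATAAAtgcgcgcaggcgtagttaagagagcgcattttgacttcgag

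In 8 of these 9 sequences a run of at least 6 pyrimidines lies within 5 bases of the listed start, and RPL10L is the one without it. RPL19, which had no peak, carries such a run with a CTTTCC match in it. RPS3A, RPS6 and RPS14 hold CCGGAAG, the core bound by ETS factors such as GABP, and AGGTCA is found in the same 3. RPL9 and RPL22 hold none of the 9 searched motifs in the printed stretch. Over all listed starts, 61 of 84 of the members (72.6%) had such a pyrimidine run, against 5087 of 22156 of protein-coding genes (22.96%). The listed start itself was a cytosine in 53 of the 84 (63.1%), against 11.4% of all. These shares describe the annotation and not the ATAC data.

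The other motifs were counted in the whole window of 250 bases before to 50 bases after each start. CTTTCC and CTTTTC, parts of the pyrimidine tract, were read along the transcript and the other motifs on both strands. In the 84 windows, 229 matches were found, of which 2 overlapped a match to another motif. Because 11 members have more than 1 listed start, windows of the same gene can overlap and share a match. CTTTCC occurred in 40.5% of the member windows, against 14.3% of all windows, and CTTTTC in 26.2%, against 10.7%. CCGGAAG occurred in 33.3%, against 12.8%, and TGACGT, the core of the cyclic AMP response element, in 20.2%, against 8.92%. AAGATGG, bound by YY1, occurred in only 9 of the 84 windows (10.7%), against 6.04%, and no interval was computed for these shares. The remaining motifs differed less. GGGCGG, bound by SP1, occurred in 54.8%, against 56.3%, TATAAA in 8.33%, against 9.46%, and the E-box CACGTG in 5.95%, against 8.34%. AGGTCA, the hexamer recognised by thyroid hormone receptors, occurred in 14.3%, against 11.9% of all windows. A match is a description of letters and not a bound site.

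**Figure D2:**
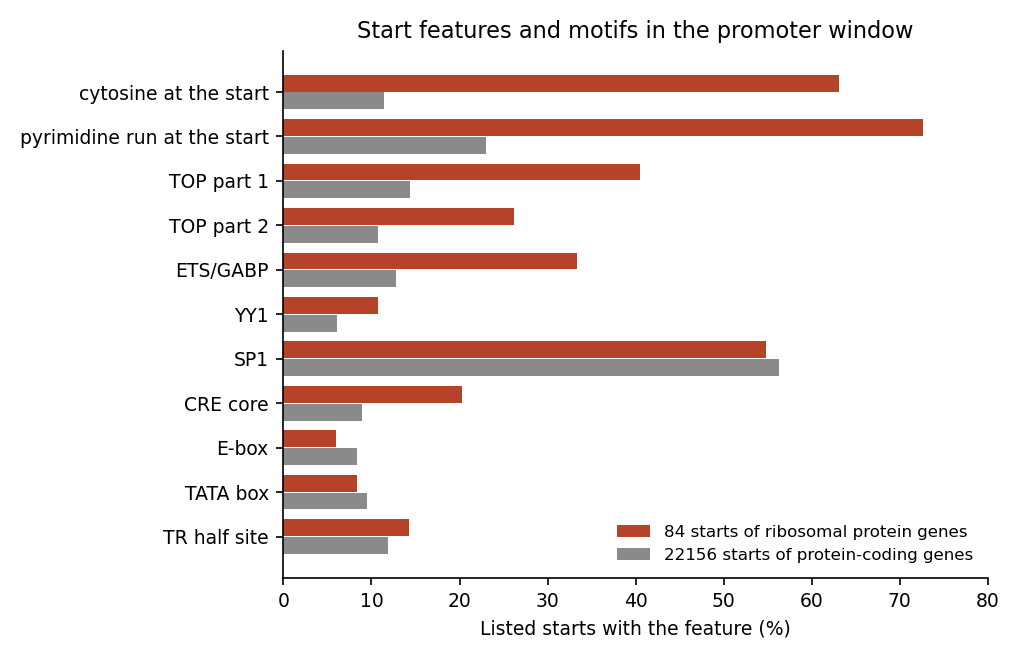
Share of listed starts with each feature (horizontal axis, %), for 84 starts of ribosomal protein genes and 22156 starts of protein-coding genes (bars). The largest gaps are at the start itself, a cytosine in 63.1% against 11.4% and a pyrimidine run in 72.6% against 22.96%. SP1, TATA box, E-box and thyroid hormone receptor (TR) hexamer matches stood within 3 percentage points.

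The 24 h peaks of members lay mostly just upstream of the transcription start. Of the 68 members with a listed start, 0 had a vehicle peak within 1 kb of one (1.3% of all genes with a listed start), 12 had a 6 h peak (12%) and 65 had a 24 h peak (95.6%, 87.6 to 99.1), against 64.9% of 15813 genes with a listed start. RPL41, RPL19 and RPL10L had none there. Taking the strongest such peak of each gene, the summit lay upstream in 58 of 65 members (89.2%), against 68.0% of 10261 genes. It lay from 0 to 200 bp upstream in 50 of the 65 (76.9%), against 50.7%. The median position was 91.5 bp upstream (interquartile range 141 to 44 bp), against 59 bp upstream for all genes (148 bp upstream to 35 bp downstream). The summits of RPS3A, RPL9, RPS6, RPL22 and RPLP1 lay 150.5, 113, 65, 119.5 and 0.5 bp upstream of the starts and thus inside the stretches printed above. That of RPL7A lay 105 bp downstream. At 6 h, 7 of 12 member summits lay upstream (58.3%), against 59.4% of 1892 genes. The farthest lay 196.5 bp upstream (RPS3A) and 240.5 bp downstream (RPL24).

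**Figure D3:**
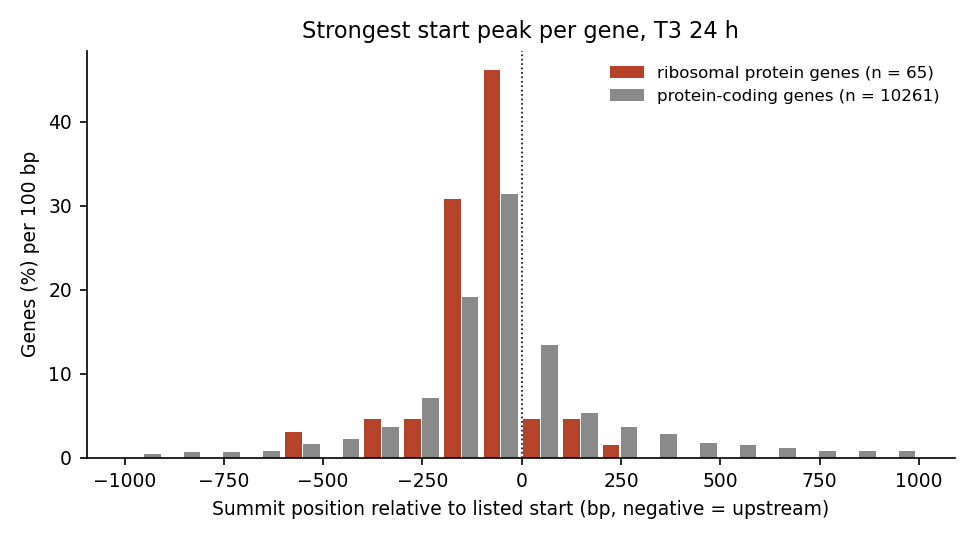
Position of the strongest 24 h peak summit within 1 kb of a listed start (horizontal axis, bp, upstream negative), as the percentage of genes per 100 bp bin (vertical axis), for 65 ribosomal protein genes and 10261 protein-coding genes. The 2 bins just upstream of the start hold 50 of the 65 members.

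The strength of a peak was read as its rank by summed signal within its own list, since signals of different lists are not on a stated common scale. Members had 91 distinct gene-end peaks at 24 h, with a median percentile of 81.1, against 72.2 for all 11539 gene-end peaks of that list. By the first replicate column alone the medians were 76.2 and 71.1, and by the second 81.1 and 70.9. Members' peaks were 852 bp wide at the median, against 935 bp, and their replicate summits lay 40 bp apart, against 48 bp. Of the 91 peaks, 71 had summits within 100 bp (78.0%, against 70.1%). Replicate signals were related with a Spearman rho of 0.81 across the 91 peaks, against 0.80 across all gene-end peaks. These peaks were kept for agreeing in both replicates, so this rho is a description.

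Among large-subunit genes, 42 of 43 had a 24 h peak, with a median percentile of 79.1 for the strongest peak of each gene. RPL37, a zinc-binding protein, ranked highest of them. Its peak at chr5:40834779-40835848 had replicate signals of 18.1 and 18.7 (percentile 99.2). RPL9 followed at chr4:39458324-39459692 with 12.99 and 20.9 (98.3), a peak that also lies at an end of LIAS. RPL5, which carries a ribosomal RNA into the large subunit together with RPL11 and binds the p53 regulator MDM2, stood at chr1:92831837-92832503 with 15.3 and 18.6 (98.3), where DIPK1A also has an end. RPL11 itself ranked lower, with 11.3 and 10.8 (85.2). RPL34 had the most unequal replicates among the 10 strongest members, 9.01 and 22.2, so that it stood at percentile 96.9 by the sum but at 79.1 by the first replicate column. RPL36A completed the large-subunit genes among the 10 strongest, with 13.5 and 17.6 (96.8), at an end it shares with BTK.

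At the low end of the large subunit stood RPL7A, RPL23 and RPL32. RPL7A had replicate signals of 3.92 and 4.49 (percentile 7.86), with summits 256 bp apart, and its peak also lies at an end of MED22. RPL32 had 3.81 and 6.88 (35.5) and RPL23 had 5.72 and 4.96 (35.4). RPL19 was the core gene without a gene-end peak. It spans chr17:39200283-39204732, and the nearest summit to either boundary lay 709425 bp away in vehicle, 34043 bp at 6 h and 9318 bp at 24 h. RPL41, which encodes the shortest ribosomal protein, had its peak at the end opposite its start, at chr12:56117901-56118790, where ZC3H10 also has an end. RPL6 had a peak at its outer boundary, shared with PTPN11 (percentile 78.3), and a further one at -350.5 bp from a listed inner start, the minus sign meaning upstream (63.3), with replicate summits 439 and 11 bp apart.

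The stalk, which recruits translation factors to the large subunit, had a 24 h peak at all 3 genes. RPLP0, the scaffold of the stalk, stood highest, with replicate signals of 14.1 and 17.1 (percentile 96.8). RPLP1 had 9.77 and 11.1 (82.6), and RPLP2 had 6.72 and 8.10 (62.9), in a peak that also lies at an end of PIDD1.

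All 31 small-subunit genes had a 24 h peak, with a median percentile of 83.4. RPS3A ranked highest of all members, at chr4:151099165-151099999, with replicate signals of 17.8 and 20.5 (percentile 99.4) and summits 3 bp apart. RPS6, the substrate of S6 kinases downstream of mTOR, had 13.4 and 19.2 (97.7). RPS12 had 13.9 and 17.9 (97.3) and RPS13 had 11.7 and 19.2 (96.6). RPS19 and RPS14 stood near the median of 83.1 over all members with a peak. RPS19, the gene most often mutated in Diamond-Blackfan anaemia, had 8.49 and 11.7 (81.1) in a peak 518.5 bp upstream of its start. RPS14, deleted in a form of myelodysplastic syndrome, had 9.58 and 11.6 (83.4). The lowest of the small subunit was RPS15, with 4.23 and 6.40 (34.8).

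**Figure D4:**
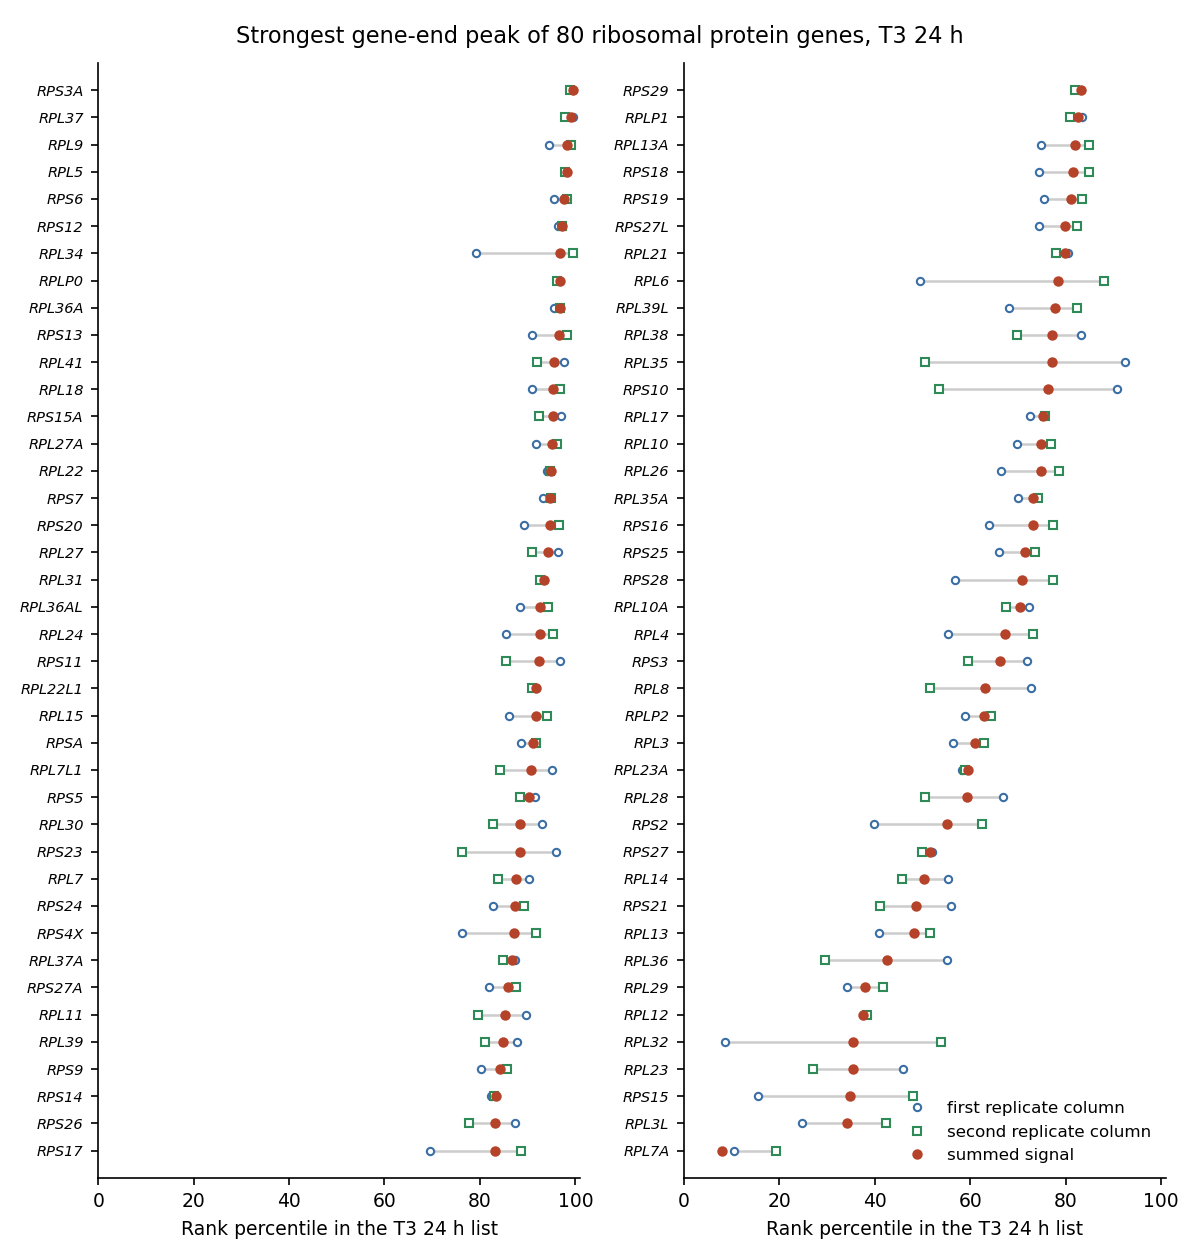
Rank percentile in the T3 24 h list (horizontal axis) of the strongest gene-end peak of each of 80 of the 82 ribosomal protein genes with one (rows), by summed signal and by each replicate column. Of all 82 genes, 28 stood at or above percentile 90 by summed signal and 11 below 50, and RPL32, RPL35, RPL6, RPS10 and RPS15 show the widest gaps between the replicate columns.

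Of the 8 paralogues, 6 had a 24 h peak (75%, 34.9 to 96.8). That interval holds both the 60.8% of all protein-coding genes and the 96.5% of all members. RPL36AL, a copy of RPL36A, stood at percentile 92.6, against 96.8 for RPL36A, and its peak also lies at an end of MGAT2. RPL22L1 stood at 91.8, against 94.9 for RPL22. RPS27L, a p53 target, stood at 79.9, against 51.5 for RPS27. RPL39L, known for the male germ line, stood at 77.8, against 84.8 for RPL39. RPL7L1 had 1 peak at its start (61.5) and a stronger one at its other end (90.7), where PEX39 also has an end, against 87.5 for RPL7. RPL3L, the form of striated muscle, had a peak of percentile 34.1, against 60.9 for RPL3. That peak lay 649 bp from the lower boundary of the gene, within 1 kb of an end of MSRB1.

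At RPL10L and RPL26L1 no list held a gene-end peak. RPL10L, a testis-expressed retrocopy of RPL10, had its nearest 24 h summit 76553.5 bp away, and RPL10 stood at percentile 74.8. RPL26L1 has listed starts inside its outer boundary. A peak lay at those starts at both times, at chr5:172958378-172960115 at 24 h (percentile 87.9) and at chr5:172958583-172959597 at 6 h (18.0). Its replicate summits lay 780 bp apart at 24 h and 574 bp apart at 6 h. RPL26 stood at 74.8.

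Large distances between replicate summits occurred at 24 h too. The largest were at RPL7 (785 bp), RPL35 (715 bp), RPS10 (582 bp), RPL6 (439 bp) and RPL30 (330 bp). The smallest were at RPSA and RPS2 (0 bp), RPL28 and RPL39 (1 bp) and RPS27 (2 bp). The peak of RPSA, which doubles as a laminin receptor, was 623 bp wide, with its summit 155 bp upstream of the start.

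Many member peaks lay where another gene also has an end. At 24 h this held for 28 of 91 distinct peaks (30.8%), against 15.2% of all gene-end peaks, and in 2 of the 28 the other gene was a read-through symbol of the member itself. A 24 h peak at no other gene's end, read-through symbols disregarded, was seen at 62 of 85 members (72.9%, 62.2 to 82.01), against 45.8% of all protein-coding genes. Members are short, with a median length of 5.04 kb against 24.2 kb for all protein-coding genes. At least 2 peaks at the same gene were seen at 8 members (9.41%, 4.15 to 17.7), against 5.91% of all protein-coding genes, which lies inside the interval. These were RPL4, RPL7L1, RPL15, RPL26, RPL27A, RPS14, RPS18 and RPS19. Of the 91 distinct peaks, 65 lay on the start side, 9 at the other end and 17 at members with no listed strand, and 5 of the 9 were at an end of another protein-coding gene. RPL27A had its stronger peak at the other end (percentile 95.03), against 77.5 at its start. The weakest second peak, at the far end of RPS18, stood at percentile 0.394 with replicate signals of 4.04 and 3.63.

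Some peaks lay close to the 1 kb limit. The farthest one counted at 24 h was the second RPS14 peak, 943.5 bp from the boundary, and the nearest one not counted was a further peak 1179.5 bp from RPL17. At the far end of RPL27A the 24 h peak, 901 bp away, was counted, while the overlapping 6 h peak (percentile 51.3), 1261 bp away, was not.

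The 15 members with a 6 h peak were 8 core genes of the large subunit (among them RPL4, RPL9, RPL15, RPL22, RPL24, RPL27 and RPL37), RPLP1 of the stalk, 4 genes of the small subunit (RPS3A, RPS14, RPS26 and RPS27A) and the paralogues RPL36AL and RPL39L. By summed signal their peaks had a median percentile of 31.0 in the 6 h list, against 49.1 for all 1806 gene-end peaks. The replicate columns did not both place them lower. By the first column the medians were 48.5 for member peaks and 53.7 for all gene-end peaks, and by the second 48.6 and 43.5. RPS14 was strongest, at chr5:150449093-150450191, with replicate signals of 3.56 and 9.54 (percentile 88.8). Its replicate summits lay 491 bp apart, and the mean summit was 187.5 bp upstream of the start at 24 h, against 135.5 bp downstream at 6 h. RPLP1 followed with 4.24 and 8.08 (84.1), and RPS27A, made as a fusion with ubiquitin, with 5.08 and 6.39 (75.5). The replicate columns ranked neither the members nor all gene-end peaks of the 6 h list alike. Of the 15 peaks, 10 had the higher signal in the second replicate column (66.7%, against 58.2% of all gene-end peaks). Spearman rho between the columns was -0.59 across the 15, against -0.45 across all gene-end peaks. Both sets were selected on both columns, so each rho is a description.

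All 15 of the 6 h peaks were shared with the 24 h list (interval 78.2% to 100%), against 92.6% (91.3 to 93.8) of all gene-end peaks at 6 h. Shared means an overlap of at least 50% of the shorter peak. The 24 h and 6 h summits lay a median of 71.5 bp apart, and 10 of the 15 lay within 100 bp. Replicate summits were closer at 24 h at 12 of the 15, with a median gap of 26 bp at 24 h, against 147 bp at 6 h. The exceptions were RPS27A (299 bp against 147 bp), RPL4 (138 bp against 56 bp) and RPLP1 (19 bp against 4 bp). At RPL4 the peak found at both times lay at the other end of the gene, next to SNAPC5.

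Members with a 6 h peak stood at a median percentile of 91.8 in the 24 h list, against 79.9 for members without one. Over all genes these medians were 90.4 and 71.8. Within the 15, however, ranks at the 2 times showed little relation (Spearman rho -0.15 across genes, which are not independent replicates). RPS3A, first of all members at 24 h, stood at percentile 11.7 at 6 h, and RPL27 at 94.2 in the 24 h list, against 3.87 in the 6 h list.

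**Figure D5:**
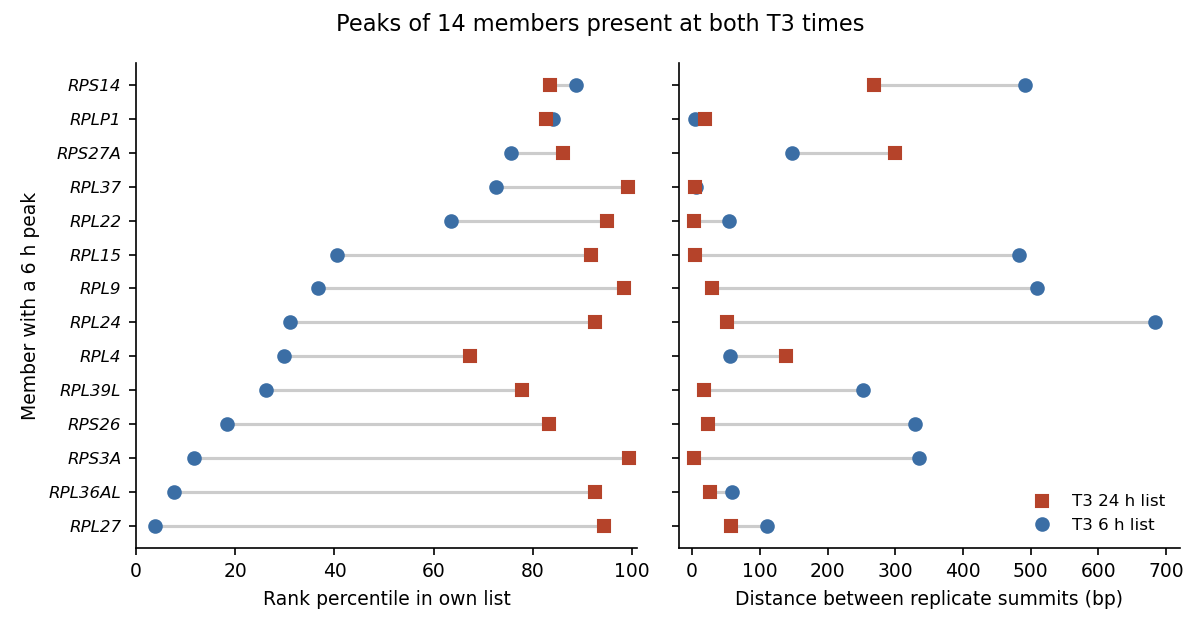
14 of the 15 members with a 6 h gene-end peak (rows) and the nearest 24 h peak of the same gene. Left, rank percentile within the T3 24 h or the T3 6 h list; right, distance between the 2 replicate summits (bp). The 24 h squares lie between percentiles 67.4 and 99.4, the 6 h circles between 3.87 and 88.8.

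Other genes of the ribosome and of its assembly were examined as lists. FAU and RACK1 encode ribosomal components outside the naming rule. FAU had a 24 h peak (percentile 82.0), as did RACK1 (56.2), a signalling scaffold on the small subunit, and neither had one in vehicle or at 6 h. Of 14 translation-related genes with TOP transcripts, 0 had a vehicle peak, 4 had a 6 h peak (EEF1G, EIF4B, BTF3 and NAP1L1) and 13 had a 24 h peak. EIF3F stood at percentile 97.9, EIF3H at 97.7 and EIF4B at 96.1 at 24 h, and EEF1D had no peak.

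Of 20 ribosome assembly and nucleolar factors, 1 had a vehicle peak, 6 had a 6 h peak and 18 had a 24 h peak. The vehicle peak was at NCL, which encodes nucleolin, at chr2:231452918-231454457 (percentile 22.1). It does not overlap the strongest 24 h peak of NCL, at chr2:231463749-231465398. The 6 h peaks were at NPM1, NOP56, WDR12, NIP7, LTV1 and RIOK2. LTV1 and RIOK2, which act in small-subunit maturation, stood at 98.3 and 96.0 at 24 h, and NPM1 at 94.5. PES1 and BYSL had no peak in any list. Of 10 genes for transcription of ribosomal RNA by RNA polymerase I, 0 had a vehicle peak, 1 a 6 h peak and 9 a 24 h peak. POLR1F, a polymerase subunit, had peaks at both times and stood at percentile 99.7 at 24 h. Its 6 h peak stood at percentile 11.3, with replicate summits 811 bp apart. RRN3 and TAF1B stood at 85.7 each, and UBTF had none. Each of these counts reads against 1.34%, 10.8% and 60.8% of all protein-coding genes in vehicle, at 6 h and at 24 h.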

How the data were processed

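ATAC-seq was made from nuclei of 50000 cells per sample, 6 samples in 3 groups. Tools listed by the submitters' processing notes are CASAVA 1.7, Trim Galore, Bowtie2, MACS2 and DiffBind, with hg38 as the build and no settings. For the Tn5 shift, duplicates and blacklist no setting is given in the sources used here. The authors deposited 1 list of 20 columns per group, in the layout of IDR (irreproducible discovery rate), made from both replicates. The deposited score is the scaled IDR, and the deposited −log10 of the IDR puts all peaks at an IDR under 0.05. As deposited, the signal equals the sum of 2 replicate signals, with unstated normalisation, so it was ranked within lists only. Replicate columns carry no sample name.

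A peak was placed at the mean of its replicate summits. Gene boundaries, starts and sequences came from RefSeq (GRCh38.p14), matched by symbol and gene ID. No p-value is given, since each group is 1 list. Python 3.11.15, numpy 2.4.6, pandas 2.3.3, scipy 1.17.1 and matplotlib 3.10.9 were used. Tested on simulated data with 19974 genes and 200 planted peaks, 148 of 148 expected gene-peak pairs were found. The members, gene lists, motifs and naming rule were chosen with earlier results of these data known. The rule named members with vehicle or 6 h peaks, the 10 strongest and 5 weakest at 24 h, those without a 24 h peak or with one at the other end, extremes of summit distance, paralogue pairs, RPL5, RPL11, RPS14 and RPS19. RPLP2 and other genes outside it were named after their values were seen, and the pseudogene, snoRNA, lineage marker and start-position comparisons were added then. A few genes that the rule or lists would name are not reported here and are not drawn in the figures.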

Additional observations from a re-analysis of the deposited data

How the results depend on the processing

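Of 56 alternative values for counts of members, 44 were within 1.5 times the value reported. These values are not independent. With 0 members in vehicle, the counts without a vehicle peak largely repeat the plain counts. The settings with 1 replicate column kept the same joint lists and moved only the summit, so they could change a count little. The vehicle count became 1 with a 2 kb window, with any overlap of the peak with the window or with the merged summit column, each time through RPL28. The 6 h count, and that of members with a 6 h and no vehicle peak, became 5 with an IDR of at most 0.01, with replicate summits within 100 bp and with lists of equal length. With lists of equal length the 24 h count, with or without regard to vehicle, became 30. For any 24 h peak this was 35.3% of members, against 16.6% of all protein-coding genes. The count of members with a 24 h and no 6 h peak became 28, for which no share of all protein-coding genes was computed. The median rank percentile of 6 h member peaks was 30.4 with a 500 bp window, 33.9 with a 2 kb window, overlap or the merged summit, 63.4 with summits within 100 bp and 75.5 with the stricter IDR or equal length. With 1 replicate column giving both summit and rank it was 48.6 to 48.6, over 16 members by the first column and 15 by the second. The 24 h median was 94.8 with equal length and 76.2 to 81.1 with 1 replicate column. The other alternatives moved it by less than the spread between the replicate columns. Equal length and the stricter limits retain fewer peaks by construction, and the other causes were not tested. No paired analysis was possible because each group is 1 list and its replicate columns carry no number. Unknown read depth limits every absence of a peak.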

Other observations

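Ribosomal protein genes host many small nucleolar RNAs (snoRNAs) in their introns, which guide the modification of ribosomal RNA. By the RefSeq annotation, 29 of 85 members (34.1%) enclosed at least 1 snoRNA gene, against 2.63% of all protein-coding genes, and they held 60 in all. RPL3, RPL4, RPL7A, RPL13A and RPL23A were among those enclosing 4 each. All 29 hosts had a 24 h gene-end peak, against 53 of 56 other members and 60.8% of all protein-coding genes. At 6 h a peak was seen at 4 of the 29 hosts and 11 of the 56 other members, against 10.8% of all protein-coding genes. The median percentile of the strongest 24 h peak was 75.2 for hosts and 83.4 for other members. Across 65 members with a listed start and a 24 h peak, promoter GC content and 24 h rank had a Spearman rho of -0.11, and across 10027 genes -0.13, given as a description over genes.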
